A study of Caenorhabditis elegans with 8 samples.

Results

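The fatty acid elongases of the nematode Caenorhabditis elegans are the products of 9 genes, elo-1 to elo-9, and their transcript levels were followed here through adult life. The members were chosen by gene symbol, each gene being represented by its brightest probe on the array, and all 9 had exactly 1 probe, out of 26128 genes with a probe of a single symbol. RNA came from synchronized whole-animal populations of the wild-type strain N2 Bristol, kept at 20 °C on nematode growth medium with E. coli OP50, with no intervention other than M9 buffer. Populations were taken at day 1 (3 arrays), day 6 (3 arrays) and day 12 of adulthood (2 arrays), and Affymetrix C. elegans Gene 1.1 ST arrays were hybridised with biotin-labelled RNA. The labels call the arrays of a day biological replicates without saying whether they were separate cultures, so the p-values measure the spread between these arrays. How adults were kept apart from their offspring is not given in the sources used here.

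Elongases carry out the first and rate-limiting step of the cycle in the endoplasmic reticulum that lengthens a fatty acyl-CoA by condensing it with malonyl-CoA, after which a ketoacyl reductase, a dehydratase and an enoyl reductase complete each round. In C. elegans, ELO-2 lengthens palmitate, and ELO-1 and ELO-2 act in the synthesis of long polyunsaturated fatty acids. ELO-5 and ELO-6 make monomethyl branched-chain fatty acids, which the worm builds from branched-chain amino acid precursors and uses in its sphingolipids, and whose loss halts larval growth. The intestine is the main fat-synthesising and fat-storing tissue of the animal.

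The signal of a probe is given below on the log2 scale as deposited, so a difference of 1 is a doubling or a halving. Array medians lay between 2.32 and 2.4, and a day mean under 3 is called dim, because it lies near the floor of the signal and no detection calls accompany the values. Across all probes Pearson's r was 0.983 to 0.989 within a day and 0.943 to 0.953 between day 12 and day 1, as a description of arrays whose probes are not independent. Levels were not compared between genes, since probes differ in how strongly they hybridise. Of the 9 members, 5 (elo-1, elo-2, elo-3, elo-5 and elo-6) were above the dim level and 4 (elo-4, elo-7, elo-8 and elo-9) were dim on every day. Differences were tested with limma in a fit over 26761 probes, with Benjamini-Hochberg adjustment over all of them, and a call is an adjusted p under 0.05.

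The elongase genes did not behave alike. Signal of elo-2, elo-5 and elo-6 fell at each step and was 4.57- to 5.99-fold lower at day 12 than at day 1, that of elo-1 fell by much less, and elo-3 was not called in any comparison. Of the dim genes, elo-9 was called lower at day 6 and at day 12 than at day 1, and elo-4, elo-7 and elo-8 were not called. No member rose.

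The palmitate elongase gene elo-2 had a log2 signal of 9.67, 9.56 and 10.39 on the arrays of day 1, 8.56, 8.82 and 8.62 at day 6, and 7.30 and 7.28 at day 12. The 3 days did not overlap, and the third day 1 array stood above the other two of that day. Between day 12 and day 1 the difference was -2.58 ± 0.24 (SE, limma adjusted p = 4.58e-05), a 5.99-fold lower signal, and it was -2.32 without day 1 replicate 3. Only 158 of the tested probes had a more negative difference. The fall was divided almost evenly between the intervals, with -1.21 ± 0.21 between day 6 and day 1 (adjusted p = 0.0140) and -1.37 ± 0.24 between day 12 and day 6 (adjusted p = 0.00409).

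The gene elo-1, whose product lengthens polyunsaturated fatty acids, had 10.26, 10.47 and 10.75 at day 1, 10.13, 10.11 and 9.96 at day 6, and 9.89 on both arrays of day 12. Its days did not overlap either, but they lay close to each other, and replicate 3 was again the highest of the day 1 arrays. The difference between day 12 and day 1 was -0.60 ± 0.17 (limma adjusted p = 0.0430), a 1.52-fold lower signal. That call was lost in 10 of 18 alternative settings, among them the fits without day 12 replicate 1 (adjusted p = 0.153), day 12 replicate 2 (0.167), day 1 replicate 2 (0.0825) or day 1 replicate 3 (0.107, with a difference of -0.47). It was also lost without day 6 replicate 1 (0.0645), replicate 2 (0.0670) or replicate 3 (0.0613), where the difference itself stayed at -0.60 and the shared estimate of the spread changed. The steps between day 6 and day 1 (-0.43 ± 0.15, adjusted p = 0.189) and between day 12 and day 6 (-0.18 ± 0.17, adjusted p = 0.671) were not called.

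**Figure D1:**
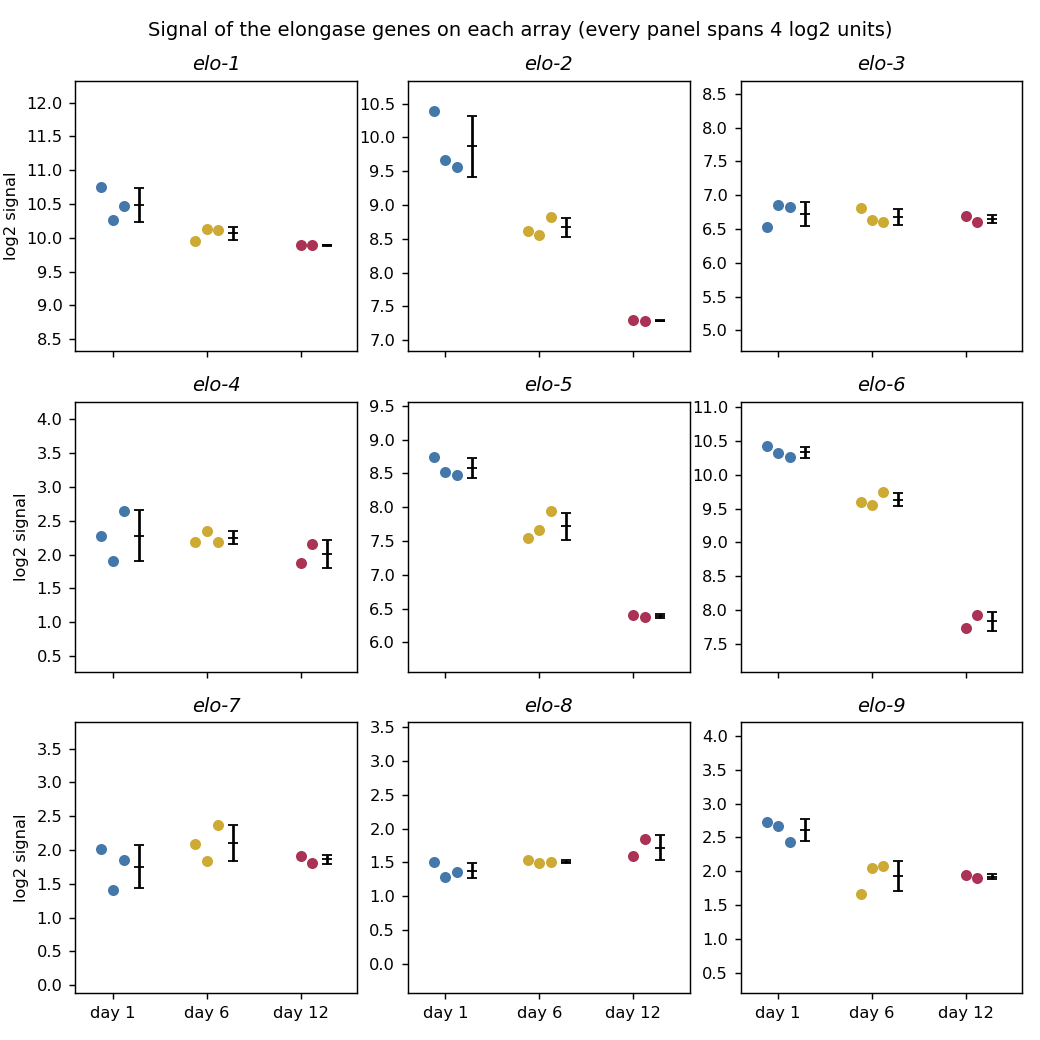
Log2 signal (vertical axis) of each elongase gene on every array at day 1, day 6 and day 12 of adulthood (horizontal axis). Points are arrays, and bars give the mean and SD of a day. Each panel spans 4 log2 units around its own middle, so slopes can be compared and levels cannot. The points of elo-2, elo-5 and elo-6 step down at both intervals, those of elo-3 overlap throughout, and elo-4, elo-7, elo-8 and elo-9 lie under 3.

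Of the branched-chain elongase genes, elo-5 had 8.52, 8.47 and 8.75 at day 1, 7.66, 7.94 and 7.55 at day 6, and 6.41 and 6.37 at day 12. Arrays of different days were at least 0.52 apart. The difference between day 12 and day 1 was -2.19 ± 0.17 (limma adjusted p = 1.76e-05), a 4.57-fold lower signal.

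Its relative elo-6, which extends branched chains further, had 10.32, 10.26 and 10.43 at day 1, 9.56, 9.74 and 9.60 at day 6, and 7.73 and 7.93 at day 12. The arrays of each day formed a tight group, with an SD of 0.09, 0.09 and 0.14 at days 1, 6 and 12. Between day 12 and day 1 the difference was -2.50 ± 0.15 (limma adjusted p = 5.42e-06), a 5.67-fold lower signal, with 172 of the tested probes more negative. Between day 6 and day 1 elo-5 fell by 0.86 on the log2 scale (SE 0.15, adjusted p = 0.0145) and elo-6 fell by 0.70 (SE 0.13, adjusted p = 0.0201). Between day 12 and day 6 elo-5 changed by -1.33 ± 0.17 (adjusted p = 0.00065) and elo-6 by -1.80 ± 0.15 (adjusted p = 5.32e-05).

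The gene elo-3, a further member of the elongase family, had 6.85, 6.82 and 6.53 at day 1, 6.63, 6.61 and 6.81 at day 6, and 6.70 and 6.61 at day 12. All 8 arrays lay within 0.32 of each other and the days overlapped. The difference between day 12 and day 1 was -0.08 with a 95% interval from -0.44 to 0.28 (limma adjusted p = 0.835). That interval lies above the point estimates of elo-1, elo-2, elo-5 and elo-6, although the difference between the genes was not itself tested.

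The 4 dim members gave little to measure. Over the 8 arrays elo-4 ranged from 1.87 to 2.65, elo-7 from 1.40 to 2.37 and elo-8 from 1.29 to 1.85. None of these genes was called in any comparison. Both day 12 arrays of elo-8 (1.59 and 1.85) lay above its day 1 arrays (1.29 to 1.5), a difference of 0.33 (limma adjusted p = 0.211). The gene elo-9 had 2.67, 2.43 and 2.73 at day 1, 2.05, 2.07 and 1.67 at day 6, and 1.95 and 1.90 at day 12. Its day 1 arrays lay above all later ones, and it was called lower at day 6 (-0.68 ± 0.16, limma adjusted p = 0.0436) and at day 12 (-0.68 ± 0.18, adjusted p = 0.0265), each against day 1. Both levels are dim, so the size of that difference has no firm scale. The day 6 call of elo-9 was lost in 11 of 17 alternative settings, among them each of the 8 fits that left out 1 array (adjusted p = 0.0570 to 0.152), and the day 12 call in 5 of 17, among them those without day 12 replicate 1 (adjusted p = 0.0992), day 12 replicate 2 (0.137), day 1 replicate 1 (0.0660) or day 1 replicate 3 (0.0711).

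**Figure D2:**
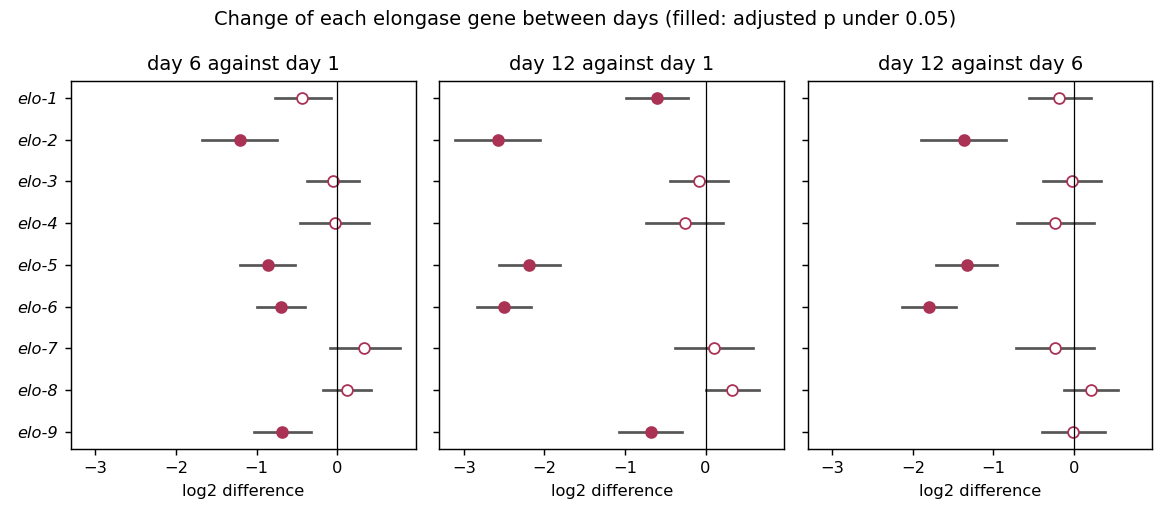
Log2 difference (horizontal axis) of each of the 9 elongase genes (vertical axis) in the comparisons of day 6 with day 1, day 12 with day 1, and day 12 with day 6. Points are limma estimates, lines are 95% intervals, and filled points have an adjusted p under 0.05. The genes elo-2, elo-5 and elo-6 are filled in all 3 panels, and elo-1 is filled only for day 12 against day 1.

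As a family, 5 of 9 members were lower at day 12 than at day 1, 0 were higher and 4 were not called. Over all tested probes 4.52% were called lower and 9.58% higher in that comparison, and 10% of the probes with a mean of at least 3 on at least 1 day were called lower. The median log2 difference over the 9 members was -0.60, against -0.01 over all probes. Leaving out day 12 replicate 1, day 12 replicate 2 or day 1 replicate 3 left 3 members called, which were elo-2, elo-5 and elo-6 each time. These genes were called in all 18 alternative settings, with differences from -2.74 to -2.32 for elo-2, from -2.26 to -2.11 for elo-5 and from -2.60 to -2.4 for elo-6.

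Between day 6 and day 1, 4 of 9 members were lower (elo-2, elo-5, elo-6 and elo-9), 0 were higher and 5 were not called, where 1.66% of all probes were called lower and 2.18% higher, and 3.86% of the probes above the dim level were called lower. The median over the members was -0.43, against 0.02 over all probes. These early calls were lost when certain single arrays were left out: without day 6 replicate 1 or day 6 replicate 3 no member was called. The differences there were -1.15 and -1.19 for elo-2, -0.83 and -0.77 for elo-5, and -0.67 and -0.69 for elo-6. In those fits the adjusted p by limma was 0.0681 and 0.0552 for elo-2, 0.0700 and 0.0614 for elo-5, and 0.0970 and 0.0762 for elo-6, while 281 and 425 of all probes were called, against 1029 with every array. Without day 1 replicate 3 elo-6 also missed the threshold (adjusted p = 0.0553) and elo-2 and elo-5 were the 2 members called. The differences kept their direction, with -1.37 to -0.95 for elo-2, -0.99 to -0.77 for elo-5 and -0.77 to -0.66 for elo-6. The value of -0.95 for elo-2 came from the fit without day 1 replicate 3.

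Between day 12 and day 6, 3 of 9 members were lower (elo-2, elo-5 and elo-6), 0 were higher and 6 were not called, where 2.69% of all probes were called lower and 6.36% higher, and 6.15% of the probes above the dim level were called lower. The median over the members was -0.23, against -0.03 over all probes. The same 3 genes were called in all 18 alternative settings of this comparison. The comparisons share arrays, so their values for a member are not independent of each other.

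Whether the later change differed from the earlier one was tested by the contrast of both within the same fit. For elo-6 the log2 change between day 12 and day 6, minus that between day 6 and day 1, was -1.10 ± 0.24 (SE, 95% interval -1.64 to -0.56, limma adjusted p = 0.0377), where 1.24% of all probes and 2.85% of those above the dim level were called in that direction. By signal, 28.1% of its whole log2 fall had occurred by day 6, against 39.2% for elo-5 and 46.8% for elo-2. The call of elo-6 was lost in 9 of 17 alternative settings, with values from -1.20 to -0.97 and adjusted p from 0.00485 to 0.155. Among these were the fits without day 1 replicate 1 (0.0593), day 1 replicate 2 (0.0698), day 6 replicate 1 (0.105), day 6 replicate 2 (0.155), day 6 replicate 3 (0.117), day 12 replicate 1 (0.0886) or day 12 replicate 2 (0.0614). For elo-5 the contrast was -0.47 (95% interval -1.08 to 0.14, adjusted p = 0.460) and for elo-2 it was -0.17 (95% interval -1.01 to 0.68, adjusted p = 0.893), and neither was called. The later interval is also the longer one by a day.

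The genes elo-5 and elo-6 are near neighbours on chromosome IV, with 3 protein-coding genes between them in the RefSeq annotation. Only F41H10.12 of these, named here after its values were seen, had a probe of its own, and it stayed between 1.70 and 2.31 on all arrays. The log2 difference elo-5 minus elo-6 within an array, which does not depend on how that array was scaled, was -1.80, -1.79 and -1.68 at day 1, -1.89, -1.80 and -2.05 at day 6, and -1.33 and -1.56 at day 12. Both day 12 arrays stood above the arrays of the other days, and those of day 1 and day 6 met at -1.80. The change was 0.31 between day 12 and day 1 and 0.47 between day 12 and day 6 (exact two-sided permutation p = 0.1 for each, the smallest that 2 arrays against 3 allow, and 0.15 adjusted over 6 tests). Between day 6 and day 1 it was -0.16 (exact permutation p = 0.2, adjusted 0.24). The genes elo-1 and elo-7 also lie side by side on chromosome IV, with 1 pseudogene between them, but elo-7 is dim, so the within-array changes of that pair (-0.77 at day 6 and -0.71 at day 12, each from day 1, exact permutation p = 0.1 for each, and 0.06 from day 6 to day 12, exact permutation p = 0.8) mix a measured gene with the floor of the signal.

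Likeness of pattern was measured as the root mean square difference between log2 profiles over the 8 arrays, each profile centred on its own mean, among 10845 other genes with a mean of at least 3 on at least 1 day. Arrays of a day resemble each other, so likeness here mostly reflects the 3 day means. Nearest to elo-2 were lec-10, a galectin gene (0.131), T08B1.1 (0.143) and hpo-34 (0.172). Nearest to elo-5 were dhcr-24, a sterol reductase homologue (0.077), the nucleoside transporter gene ent-4 (0.118) and the tetraspanin gene tsp-10 (0.159). Nearest to elo-6 were the ground-like gene grl-4 (0.099), again ent-4 (0.162) and F41G3.10 (0.168). The 3 strongly falling elongases stood close to each other too: elo-5 was the gene of rank 9 from elo-6 (0.205) and of rank 10 from elo-2 (0.24), and elo-6 was of rank 15 from elo-5 and of rank 31 from elo-2 (0.302). The gene elo-2 was of rank 30 from elo-5 and of rank 42 from elo-6. The gene elo-1 stood at rank 892, 903 and 1108 from elo-2, elo-5 and elo-6. Profiles were not scaled to their size of change, so these ranks largely restate how far each gene fell. They are no separate evidence of a shared pattern. Nearest to elo-1 were lpd-5, which encodes a subunit of mitochondrial complex I (0.078), the myosin gene hum-4 (0.083) and mmaa-1 (0.090), and nearest to the dim elo-9 were F29F11.15 (0.096), F22A3.12 (0.114) and K08F11.1 (0.120).

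The enzymes that complete the elongation cycle had smaller differences than elo-2, elo-5 and elo-6, a contrast between genes that was not itself tested. Of 3 measured, all 3 were lower at day 12 than at day 1: the ketoacyl reductase gene let-767 (-0.89 ± 0.14, limma adjusted p = 0.00152), the dehydratase homologue hpo-8 (-0.89 ± 0.17, adjusted p = 0.00586) and the enoyl reductase homologue art-1 (-0.61 ± 0.15, adjusted p = 0.0197). For let-767 the arrays read 8.72, 8.59 and 8.61 at day 1, 8.19, 8.15 and 8.21 at day 6, and 7.73 and 7.77 at day 12, a narrow spread at each age. None of the 3 was called between day 6 and day 1 or between day 12 and day 6. Beside the counts of this and the following pathway lists, 4.52% of all tested probes were called lower at day 12 than at day 1. Of the probes above the dim level it was 10%, and 9.58% of all tested probes were called higher. Without day 12 replicate 1 hpo-8 was no longer called between day 12 and day 1, with a difference of -0.7. For art-1 that call was lost without day 12 replicate 1 (difference -0.57), day 12 replicate 2 (-0.65) or day 1 replicate 3 (limma adjusted p = 0.0552). It was also lost with the arrays of day 12 and day 1 alone (0.0638) or with the replicate number as a block (0.0729).

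Of the genes for branched-chain precursor supply, on which ELO-5 and ELO-6 draw, 4 of 6 listed were measured, and all 4 had lower transcript signal at day 12 than at day 1, with a median of -1.35. Between day 6 and day 1 only bcat-1 was called lower, and between day 12 and day 6 only acs-1 and bcat-1 were. The gene acs-1, whose acyl-CoA synthetase activates branched-chain fatty acids, had 9.42, 9.28 and 9.43 at day 1, 8.90, 8.95 and 8.64 at day 6, and 7.57 and 7.05 at day 12. It differed by -2.07 ± 0.19 between day 12 and day 1 (limma adjusted p = 4.29e-05). The branched-chain aminotransferase gene bcat-1, for the first step of leucine, isoleucine and valine breakdown, had 8.30, 8.31 and 8.29 at day 1, 7.39, 7.56 and 7.58 at day 6, and 6.43 and 6.47 at day 12. It differed by -1.85 ± 0.14 between day 12 and day 1 (adjusted p = 1.64e-05) and by -0.79 ± 0.13 between day 6 and day 1 (adjusted p = 0.00982), and the day 6 call was lost without day 6 replicate 1 (0.0552). The dehydrogenase complex genes bckd-1B (-0.86 ± 0.15) and dld-1 (-0.64 ± 0.14) fell by less between day 12 and day 1. The call of dld-1 was lost without day 12 replicate 2 (difference -0.53) or with the replicate number as a block (limma adjusted p = 0.0520).

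Of 6 ceramide synthesis genes, which draw on the branched chains for the worm's sphingoid base, 3 were lower at day 12 than at day 1 and 0 were higher. These were the serine palmitoyltransferase genes sptl-1 (-0.95 ± 0.17), sptl-2 (-1.70 ± 0.21) and sptl-3 (-0.88 ± 0.16), of which sptl-2 was dim at day 12, so the size of its difference has no firm scale. The ceramide synthase gene hyl-1 (-0.01 ± 0.17) was not called, nor were hyl-2 (-0.45 ± 0.16) and the dim lagr-1. Of all probes above the dim level 10% were called lower between day 12 and day 1.

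The desaturases were mostly not called. Of 7 measured, 2 were lower at day 12 than at day 1 and 5 were not called, with a median of 0.03 over members on both sides of 0. The stearoyl desaturase gene fat-7 fell by 3.55 on the log2 scale (SE 0.61, limma adjusted p = 0.00272), but its arrays spread widely, with 7.56, 8.63 and 9.96 at day 1, 8.22, 8.07 and 7.90 at day 6, and 5.98 and 4.35 at day 12. The second stearoyl desaturase gene fat-6 fell by 0.72 (SE 0.18, adjusted p = 0.0248). That call was lost without day 12 replicate 1 (difference -0.64), day 12 replicate 2 (-0.79) or day 1 replicate 3 (limma adjusted p = 0.0589). It was also lost with the arrays of day 12 and day 1 alone (0.0603) or with the replicate number as a block (0.0780). The palmitoyl desaturase gene fat-5 was not called (-0.76 ± 0.42), nor were the polyunsaturated fatty acid genes fat-1 (0.05 ± 0.15), fat-2 (0.52 ± 0.22), fat-3 (0.44 ± 0.24) and fat-4 (0.03 ± 0.23). At day 1 the mean of the 7 desaturases stood 0.58 above the mean of the day on replicate 3, the array on which elo-1, elo-2, elo-5, elo-6, elo-7, elo-8 and elo-9 also had their highest day 1 value.

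De novo synthesis can supply malonyl-CoA and palmitate, inputs of elongation. Of its 4 genes measured, 1 was higher, 1 lower and 2 not called between day 12 and day 1. The fatty acid synthase gene fasn-1 had 7.77, 7.69 and 7.71 at day 1, 7.10, 7.36 and 7.5 at day 6, and 8.52 and 8.18 at day 12, the opposite direction to elo-2 after day 6. It differed by 1.03 ± 0.17 between day 12 and day 6 (limma adjusted p = 0.00375) and by 0.63 ± 0.17 between day 12 and day 1 (adjusted p = 0.0373). The second call was lost without day 1 replicate 1 (0.0647), replicate 2 (0.0872) or replicate 3 (0.0765), or day 6 replicate 2 (0.0594). It was also lost without day 12 replicate 1, where the difference was 0.46. Quantile (0.0719) or cyclic loess normalization (0.0698) and array weights (0.0557) lost it too. So did the arrays of day 12 and day 1 alone (0.0636) and the replicate number as a block (0.0688). The ATP citrate lyase gene acly-1 was lower (-0.68 ± 0.18, adjusted p = 0.0284). Its call was lost without day 1 replicate 1 (0.0717), day 1 replicate 3 (0.0780) or day 12 replicate 2, where the difference was -0.51. It was also lost with the arrays of day 12 and day 1 alone (0.0753) or with the replicate number as a block (0.0580). The acetyl-CoA carboxylase gene pod-2 had -0.37 ± 0.22. Among 6 regulators of fat synthesis 1 was lower at day 12 than at day 1, the nuclear hormone receptor gene nhr-80 (-0.98 ± 0.21, adjusted p = 0.0108). That call was lost without day 12 replicate 1, where the difference was -0.85. Of all probes above the dim level 10% were called lower between those days. The SREBP homologue sbp-1, a known activator of elo-5 and elo-6, had 0.32 ± 0.26, the mediator subunit gene mdt-15 -0.02 ± 0.17 and the receptor gene nhr-49 0.48 ± 0.19, and none of these was called.

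**Figure D3:**
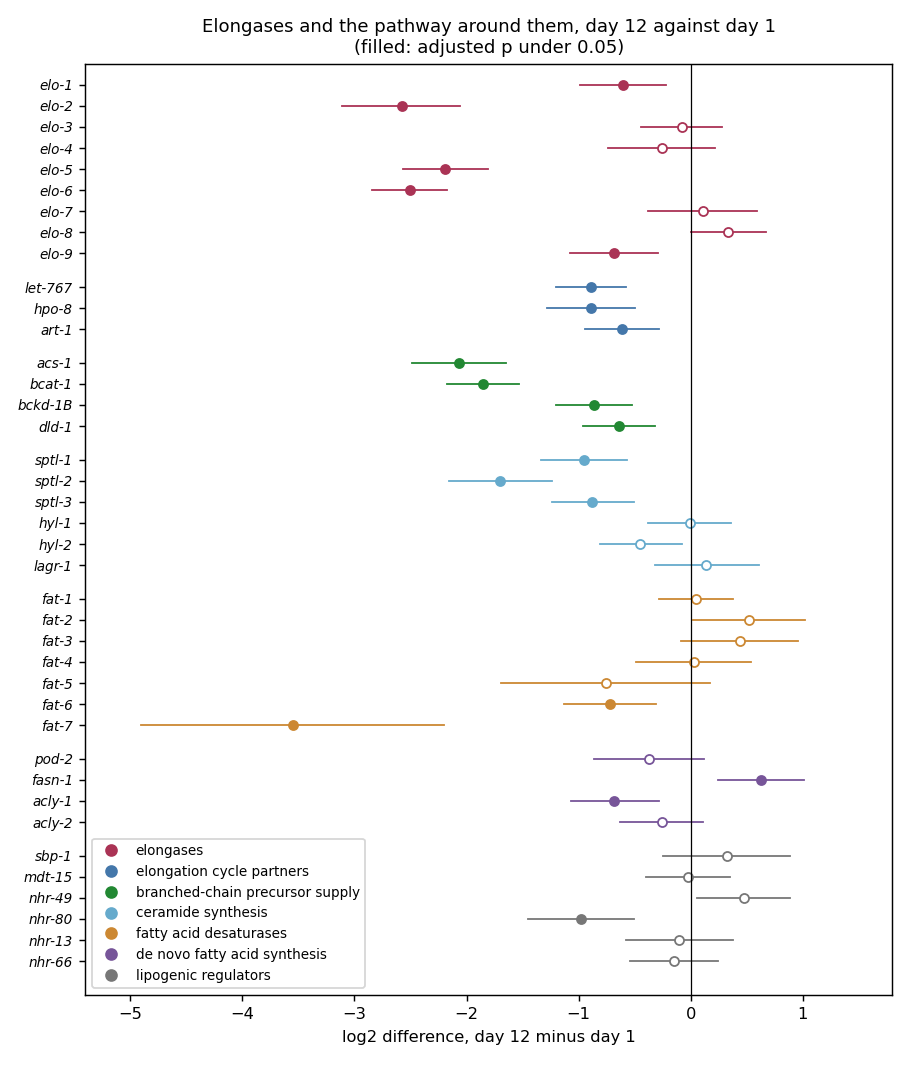
Log2 difference between day 12 and day 1 (horizontal axis) for the elongases and for the genes of 6 pathway lists (vertical axis), with limma estimates as points, 95% intervals as lines and filled points where the adjusted p was under 0.05. The genes elo-2, elo-5 and elo-6 lie near acs-1 and bcat-1, while the desaturases lie on both sides of 0 and fasn-1 lies on the positive side.

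Whole animals mix all tissues, so fewer cells of a tissue and less RNA per cell cannot be told apart in these values. Of 15 intestine markers 9 were lower, 1 (mtl-2) was higher and 5 were not called between day 12 and day 1, with a median of -1.19. The call of mtl-2 was lost without day 12 replicate 2, where the difference was 1.17. That of ges-1 was lost in several settings, among them array weights (limma adjusted p = 0.0576) and the fit without day 1 replicate 2 (0.105). Summed signal of the list was 2238 on both day 12 arrays, against 5524 to 6279 on the arrays of day 1. No marker of that list was dim on every day. The intermediate filament gene ifb-2 of the terminal web (-3.05 ± 0.27), the V-ATPase subunit gene vha-6 (-3.13 ± 0.23) and the acid phosphatase gene pho-1 (-4.57 ± 0.37) fell, while the intestinal GATA factor gene elt-2 (-0.75 ± 0.26) was not called. Set against the mean log2 signal of the intestine list on the same array, elo-2 was lower by a further 1.11 at day 12 than at day 1, elo-6 by 1.03 and elo-5 by 0.71, whereas elo-1 stood 0.87 and elo-3 1.40 higher. Between day 6 and day 1 the same relative change was -0.56 for elo-2, -0.21 for elo-5 and -0.05 for elo-6. That mean averages markers that moved unlike each other. The day mean of mtl-2 went from 7.57 at day 1 to 9.08 at day 12. By contrast, ifb-2, vha-6 and pho-1 fell by more than any elongase. Changes relative to that mean thus do not place these members outside the range of the intestine markers. The part of the intestine's decline in the members' changes was not tested.

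Calls in the other tissue lists went in both directions. Over all tested probes 9.58% were called higher and 4.52% lower at day 12 than at day 1. All 10 body wall muscle markers were lower at day 12 than at day 1, with a median of -3.02. Their summed signal was 545 to 626 at day 12, against 5654 to 7376 at day 1. Of these calls, that of unc-89 was lost without day 1 replicate 1 (limma adjusted p = 0.0578) or day 12 replicate 2 (difference -0.87). Of 10 germline markers 1 was higher and 1 lower. Of 10 neuron markers 1 was higher and 0 lower, and of 10 oocyte and eggshell markers 0 were higher and 1 lower. These counts lie near the shares over all probes. Summed signal at day 12 was 3969 to 4688 for the germline list, against 4783 to 5077 at day 1, 1932 to 1954 for the neuron list, against 1289 to 1440, and 14740 to 17650 for the oocyte list, against 18172 to 19422. Such sums weigh the brightest probes most: in the neuron list the called gene was snb-1, its brightest probe, with 10.64 at day 12, against 9.99 at day 1, and the other 9 markers were not called. Of 10 hypodermis and seam markers 4 were higher and 2 lower, with 3 dim on every day. Their summed signal was 281 to 296 at day 12, against 570 to 901 at day 1. The day mean of col-19 in that list went from 9.23 at day 1 to 3.46 at day 12. Of 10 embryo markers 3 were higher and 0 lower, with 4 dim on every day. The embryo list summed to 1197 to 1253 at day 12, against 818 to 904 at day 1. Of 8 sperm markers measured 2 were higher and 0 lower, with 6 of those 8 dim on every day. The gene elt-1, higher at day 12 than at day 1 (1.92 ± 0.20), is in both the hypodermis and the embryo list and is counted in each. Their part in the members' changes was not tested either.

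**Figure D4:**
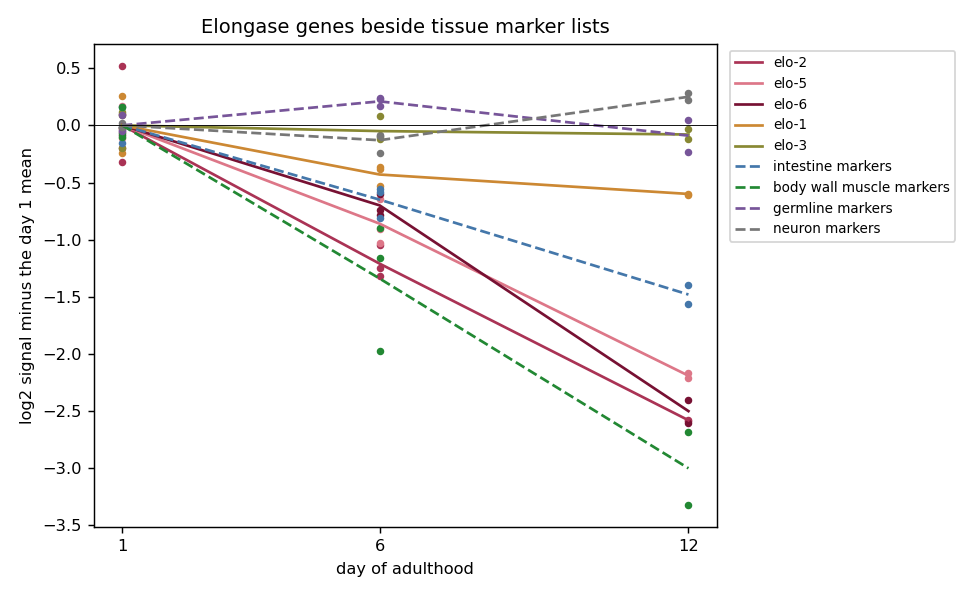
Log2 signal minus the day 1 mean (vertical axis) against day of adulthood (horizontal axis) for 5 elongase genes (solid lines) and for the mean of 4 tissue marker lists (dashed lines), with points for single arrays and lines through the day means. By day 12 elo-2, elo-5 and elo-6 lie below the intestine list at -1.48 and above the body wall muscle list at -3, while elo-1 and elo-3 lie above the intestine list.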

How the data were processed

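The deposited table holds 29317 probes by 8 arrays. Its values were read as the log2 signal of the authors because they ran from 0.68 to 13.23; neither their normalization nor the log base is stated in the labels or headers. A probe table gave 26281 probes 1 gene symbol, 480 several and 2556 none. The 26761 probes with a symbol were fitted by limma 3.58.1 under R 4.3.3 (moderated by eBayes, two-sided), with a mean per day over all 8 arrays. The days shared one estimate of the spread, on 5 residual degrees of freedom plus 5.07 from the prior. The fit was tested on simulated data. Arrays give no counts, so their number limits the precision. Neighbouring genes came from the RefSeq annotation, by chromosome and start position.

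All 9 members were named. The 3 genes most like each called member were chosen by the root mean square difference, called genes of the pathway lists by size of change, at most 4 per comparison, with elongation partners and desaturases open to all, and up to 3 genes per marker list. Genes of the pathway lists named as not called (hyl-1, hyl-2, lagr-1, pod-2, sbp-1, mdt-15, nhr-49) lie outside that rule. So do elt-1, elt-2, mtl-2, ges-1, unc-89, snb-1 and the genes between neighbouring members. All of these were chosen after their values were seen. Members and lists were chosen with earlier results of these data known. A known batch or date is not given, so one that followed age cannot be told apart from it. Alternatives were other normalizations, variance models and probe filters, the mean of a gene's probes, array weights, the arrays of the days compared alone, each array left out and the replicate number as a block. Replicate numbers did not pair the arrays: the correlation of their deviations ran from -0.114 to 0.112.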

Additional observations from a re-analysis of the deposited data

How the results depend on the processing

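The 3 strongly falling genes elo-2, elo-5 and elo-6 kept their direction and their call in all 18 alternative settings for day 12 against day 1 and for day 12 against day 6, and 3 members were called in the second comparison each time. Counts of members called ran from 0 to 3 for day 6 against day 1, from 3 to 4 for day 12 against day 1, and from 0 to 1 for the late change minus the early change when 1 array was left out, where 4, 5 and 1 were called with all arrays. Counts of all probes called then ran from 281 to 937, from 2454 to 3519 and from 431 to 926, and from 1371 to 2568 for day 12 against day 6. Restricting the fit to probes with a mean of at least 3 gave 1557 probes called for day 6 against day 1, against 1029 in the main fit. In the late minus early contrast it gave 1020, against 927. It gave fewer for day 12 against day 1 (3514, against 3773) and for day 12 against day 6 (2218, against 2423). The filter leaves fewer probes to adjust over, and the reason for these differences was not tested. Cyclic loess normalization left 0 members called in the late minus early contrast. The samples share only a number: with that number as a replicate block 3 members were called for day 12 against day 1 (elo-2, elo-5 and elo-6) and 0 in the late minus early contrast, where elo-3 had -0.00. Values near 0 that were never called changed sign. For elo-3, day 12 against day 6 gave 0.02 under cyclic loess and -0.08 to 0.03 with 1 array left out, day 6 against day 1 gave -0.15 to 0.01, and the late minus early contrast gave -0.01 under median centring and -0.06 to 0.14 with 1 array left out. For elo-9, day 12 against day 6 gave 0.03 under quantile normalization and -0.14 to 0.06 with 1 array left out. With 1 array left out, elo-4 had -0.22 to 0.16 for day 6 against day 1, elo-7 had -0.07 to 0.24 for day 12 against day 1, elo-8 had -0.04 to 0.22 in the late minus early contrast, and elo-1 minus elo-7 had -0.06 to 0.23 for day 12 against day 6. The causes were not tested. Without a day 12 array that day has a lone array, assumed to vary like the other days. With 8 arrays and no detection calls, the levels of the 4 dim members cannot be told from the floor of the signal. Of these members, elo-9 was still called lower after day 1, with its day 1 arrays above all later ones.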
